A study of Vitis vinifera with 18 samples.

Results

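Ripe Cabernet Sauvignon berries from Sicily were compared with those from Molise by RNA sequencing, in 3 biological replicates per site, or 6 of the 18 libraries of a study that also held Cabernet Sauvignon from Campania and the variety Aglianico at all 3 sites. The comparison used transcript clusters (the numbered features of the deposited table, each a group of related transcript sequences) with 10 or more counts in each of the 6 libraries, which kept 18618 of 97442 clusters. All vines compared were Vitis vinifera of 1 genotype, Cabernet Sauvignon, grown in the open field as bushes 0.5 m high with spur pruning. Every library came from 10 fully ripe berries ground without seeds, so the values are averages over skin and pulp, and fewer cells of a kind cannot be told apart from less RNA per cell. The series was designed to ask how each variety's berries respond to their growing site, and the climate of the sites was not analysed here.

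Ripening grape berries soften, load sugars and, in red varieties, build anthocyanin pigments in the skin. Heat, light and water supply at the site are known to alter the transcripts of pigment, stress and cell wall pathways. Cabernet Sauvignon is a widely planted red variety known for thick, deeply pigmented skins. Clusters are identified only by number, and 0 of the 97442 identifiers were found in the RefSeq gene table, so no cluster can be assigned to any of these pathways and no tissue markers could be checked. The results below are therefore about how many transcripts differed, how strongly, at which level of abundance and in which libraries.

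The Sicily libraries held 27705245 counts in replicate 2, 29938478 in replicate 3 and 25331138 in the library whose column carries no legible replicate number, called the unnumbered library. The Molise libraries held 26400474, 23198406 and 26251843 counts in replicates 1, 2 and 3. Clusters with 10 or more counts numbered 45103 in Sicily replicate 2, 29228 in the unnumbered library and 23540 in Sicily replicate 3, against 22604 to 24328 at Molise. Sicily replicate 2 and the unnumbered library stood apart from the other 4. Replicate 2 had 21003 clusters, and the unnumbered library 7831, that reached 10 counts in no other of the 6 libraries, against 283 in Sicily replicate 3 and 226 to 1022 in a Molise library. These clusters took 6.16% of the counts of Sicily replicate 2 and 6.25% of the unnumbered library, and 0.0119% of Sicily replicate 3.

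The requirement of 10 counts everywhere set those clusters aside, along with the clusters of a single site. Of 57449 clusters with 10 or more counts in any of the 6 libraries, 30930 reached that count in only 1 library. Another 1331 reached it in all 3 Sicily libraries but not in all 3 from Molise, and 2220 in all 3 Molise libraries but not in all 3 from Sicily. Complete presence and absence was rare, with 23 clusters at 10 or more counts in all 3 Sicily libraries and at no count at Molise, and 29 the other way. The kept clusters held 99.2% of the counts of Sicily replicate 3, 88.7% of replicate 2 and 92% of the unnumbered library, against 98.9% to 99.1% at Molise. Just inside the limit, 360 clusters had a lowest count of exactly 10, with a median of 20.7 counts per library. Just outside it, 377 clusters had a lowest count of 9, with a median of 19.7 counts.

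**Figure D1:**
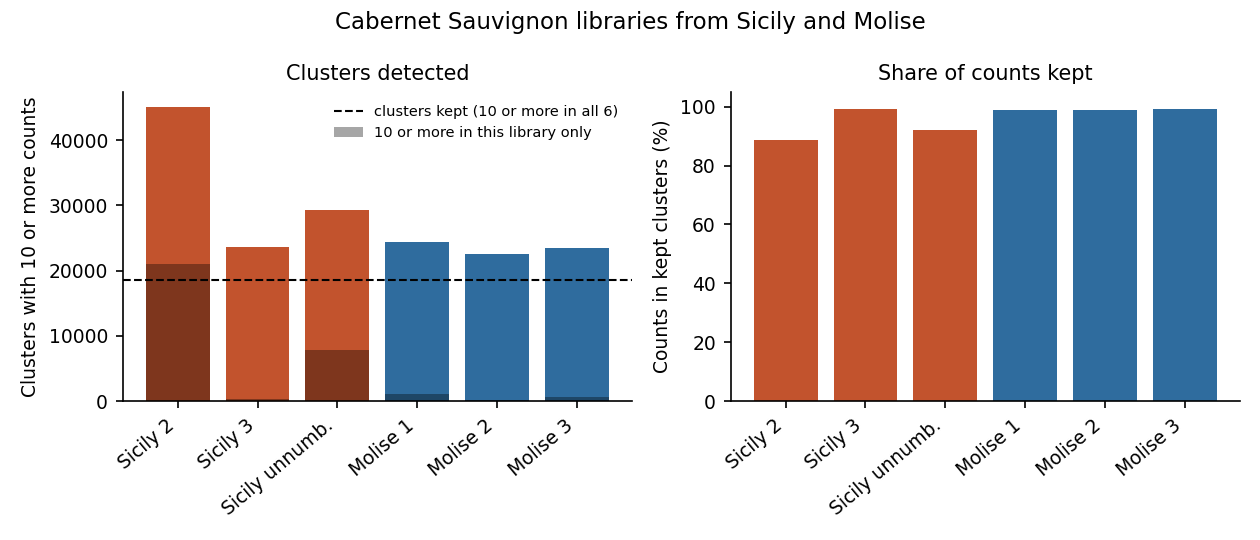
Bars give, for each of the 6 Cabernet Sauvignon libraries, the number of clusters with 10 or more counts (left, with the dark part for clusters that reach 10 counts in that library only and the dashed line at the 18618 kept clusters) and the percent of its counts in kept clusters (right). Sicily replicate 2 and the unnumbered Sicily library hold the most clusters and the lowest kept shares, while Sicily replicate 3 lies close to the Molise libraries.

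No difference in these library measures passed a test over the libraries. The mean number of detected clusters was 32624 ± 11175 at Sicily and 23482 ± 862 at Molise (SD, n = 3, exact two-sided permutation p = 0.2). The share of counts in kept clusters was 93.3% ± 5.36 and 99% ± 0.0698 (SD, n = 3, exact permutation p = 0.4). The 20 most abundant kept clusters took 16.7% ± 3.16 of the kept counts at Sicily and 15.8% ± 1.09 at Molise (SD, n = 3, exact permutation p = 0.6), and 16 clusters were among the 20 most abundant at both sites. Each adjusted p over the 3 measures was 0.6, and a design of 3 against 3 cannot give a p under 0.1.

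Within the kept clusters the libraries parted by site. Levels are given from here on as CPM, each library's counts brought to a common total over the kept clusters, with TMM factors (trimmed mean of M values), which set the bulk of clusters to an equal level. Across the 18618 clusters, Pearson correlations of log2 CPM were 0.978 to 0.984 between Molise libraries, 0.949 to 0.974 between Sicily libraries and 0.892 to 0.944 between sites. The first principal component held 64.8% of the variance and separated the sites, with Sicily replicate 3 (37.7) nearer to the Molise libraries (-67.3 to -51.3) than Sicily replicate 2 (67.3) and the unnumbered library (77.2) were. The second held 17.3% and set Sicily replicate 2 (61.2) against the other Sicily libraries (-36.7 and -31.3). Site took 62.3% of the variance of log2 CPM and the spread between libraries of a site 37.7%. Part of the 62.3% would arise between any groups of 3 libraries, and that part was not subtracted. Sicily libraries varied more than Molise libraries, with a median SD of log2 CPM of 0.29 against 0.19, and the SD was larger at Sicily for 68.9% of clusters. At 100 to 1000 CPM the median SD was 0.23 at Sicily and 0.10 at Molise. Sicily replicate 2 was the library of its site farthest from the site mean for 48.2% of clusters, and Molise replicate 1 for 40.2%.

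About 1 kept cluster in 5 differed in level between the Sicily and Molise libraries, with 2254 clusters higher and 1438 lower at Sicily. Called clusters had an adjusted p under 0.05 in edgeR's quasi-likelihood test on the 6 libraries, with Benjamini-Hochberg adjustment over all 18618, and made up 19.8% of the clusters tested (12.1% higher and 7.72% lower). The clusters that rose had a median level of 13.5 CPM at Molise and 43.7 CPM at Sicily and a median log2 fold change of 1.36. Those that fell had 20.7 CPM at Molise and 10.3 CPM at Sicily, with a median log2 fold change of -0.93. Over all kept clusters the median log2 fold change was 0.0013 and the median absolute value 0.39. Clusters called higher held 21.9% to 28.9% of the kept counts of a Sicily library and 11.7% to 12.4% at Molise. Clusters called lower held 3.09% to 3.76% at Sicily and 7.32% to 8.07% at Molise.

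Without regard to any test, the 3 Sicily values lay entirely above the 3 Molise values for 3975 clusters (21.4%) and entirely below them for 3809 (20.5%). Together these were 41.8% of the clusters. The near balance holds under TMM factors, which centre the bulk of clusters, and under RLE factors (relative log expression, 3976 above and 3821 below), while upper-quartile factors gave 2964 and 5248 and no factors 2283 and 6834. Of the 3692 called clusters, 3689 had no overlap between the sites. The balance of the calls depended on the scaling: upper-quartile factors gave 1811 higher and 2436 lower, and no factors 1533 higher and 3947 lower, with the median of all clusters moved to -0.15 and -0.28 on the log2 scale. All 1438 clusters called lower remained called lower under both of these scalings, and of the 2254 called higher 1811 remained under upper-quartile factors and 1533 under none. Both scalings move fold changes downward, which favours keeping the lower calls and losing the higher. Under RLE factors 2249 higher and 1429 lower calls remained. TMM factors and totals of all clusters kept 1936 and 1391.

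Among kept clusters, large changes were mostly increases at Sicily. The minimum count had removed other clusters. Of these, 2220 reached that count in all 3 Molise libraries but not in all 3 from Sicily, and 1331 the other way. Another 29117 reached it in 1 Sicily library only, and 1813 in 1 Molise library only. Of the 377 with a lowest count of 9, 239 were lowest at Sicily and 110 at Molise. How far their removal moved the split of large changes was not tested. Among called clusters, 307 were at least 8-fold higher at Sicily (1.65% of clusters tested) and 20 at least 8-fold lower (0.107%). Between 4-fold and 8-fold there were 333 higher and 78 lower, between 2-fold and 4-fold 890 and 541, and under 2-fold 724 and 799. Under TMM the tilt grew with the size of the change, from slightly more decreases among small changes to 307 increases against 20 decreases among the largest. It had the same direction under each scaling tried, with 239 to 311 increases and 20 to 31 decreases of 8-fold or more. With Sicily replicate 3 as the only Sicily library, so without both libraries that stood apart, there were 124 increases and 30 decreases of that size, in a fit that assumes this library to vary like those from Molise.

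**Figure D2:**
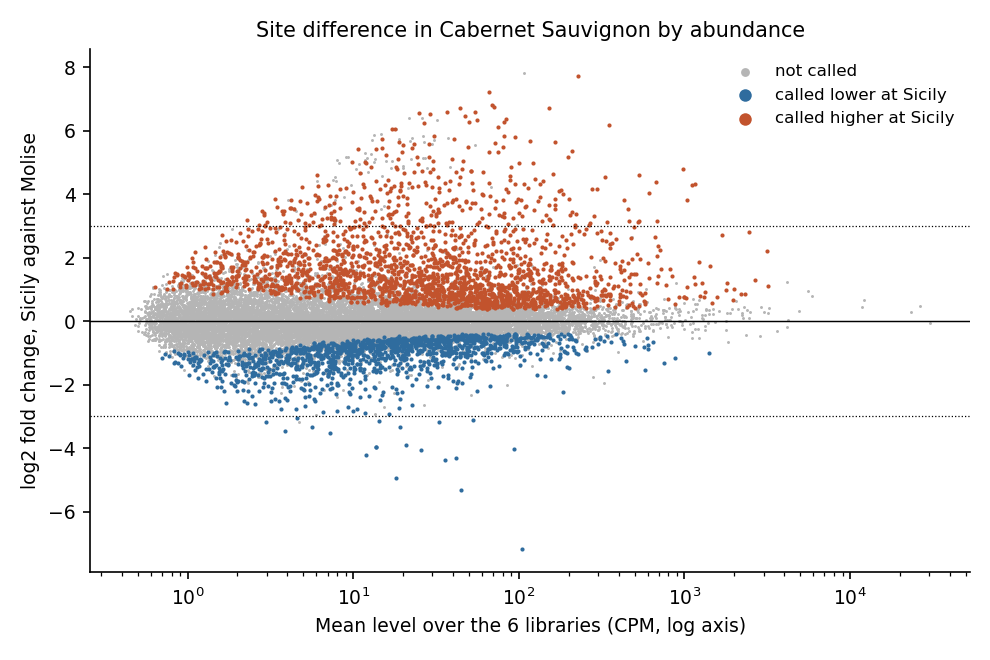
Each point is 1 of the 18618 kept clusters, with its mean CPM over the 6 libraries on a log axis and its log2 fold change of Sicily against Molise; called clusters are coloured and the dotted lines mark 8-fold. Called points above the upper dotted line (307) far outnumber those under the lower one (20).

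The 307 strongest increases were found in each of the Sicily libraries but not to the same degree. Their median level was 5.88 log2 CPM in Sicily replicate 2, 6.21 in the unnumbered library and 4.43 in replicate 3, against 1.39, 1.8 and 1.42 in Molise replicates 1, 2 and 3. These values chose the clusters and are a description. Sicily replicate 3 was the lowest of the Sicily libraries. The unnumbered library was the highest of the 6 for 179 of the 307, replicate 2 for 118 and replicate 3 for 10. Together the 307 clusters took 4.77% and 5.45% of the kept counts of Sicily replicate 2 and the unnumbered library and 2.43% of replicate 3, against 0.288% to 0.405% at Molise. Both libraries with the higher levels are those that held 21003 and 7831 clusters found at 10 counts in no other library. The part of those extra transcripts in the increases was not tested.

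A further 63 clusters were at least 8-fold higher at Sicily without passing the test. Sicily replicate 2 was the highest library for 58 of them, with a median of 6.16 log2 CPM against 1.29 in replicate 3 and 1.5 in the unnumbered library. At Molise their median was -0.54 to 0.21. Only 1 cluster was at least 8-fold lower without passing.

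The split of the calls differed between abundance classes and, below 1000 CPM, with the scaling. Below 20 CPM it also differed with the test and the libraries fitted. Under TMM factors, of 6227 clusters under 5 CPM, 352 were higher and 295 lower at Sicily, and of 5117 at 5 to 20 CPM, 553 and 529. At 20 to 100 CPM 895 of 5336 clusters were higher and 505 lower. At 100 to 1000 CPM the numbers were 428 and 108 of 1847, and among the 91 clusters at 1000 CPM or more 26 were higher and 1 lower. The called share rose from 10.4% in the lowest class to 29.7% in the highest, beside 19.8% overall. The median SD of log2 CPM between libraries of a site was 0.38 at Sicily and 0.32 at Molise under 5 CPM, 0.23 and 0.10 at 100 to 1000 CPM, and 0.33 and 0.13 at 1000 CPM or more. The median log2 fold change of all clusters of a class went from -0.031 under 5 CPM to 0.13 at 100 to 1000 CPM and 0.36 at 1000 CPM or more. At 1000 CPM or more the higher calls outnumbered the lower under each scaling, by 21 to 6 with no factors and by 23 to 4 with upper-quartile factors. At 100 to 1000 CPM the direction turned without factors, to 272 higher and 390 lower, and upper-quartile factors gave 335 and 218. At 20 to 100 CPM it turned with upper-quartile factors (708 higher, 881 lower) and without factors (587 and 1465). At 5 to 20 CPM it turned with upper-quartile factors (461 and 867), without factors (413 and 1350), and with factors and totals of all clusters (492 and 622). Under 5 CPM the same 3 settings gave 284 and 466, 240 and 736, and 320 and 344.

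**Figure D3:**
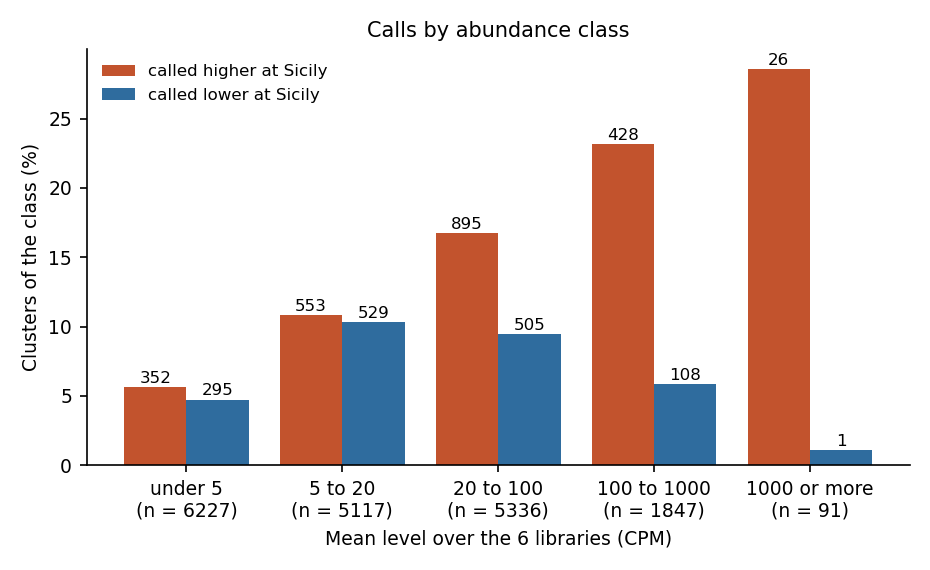
Bars give the percent of kept clusters in each class of mean CPM that were called higher or lower at Sicily, with the number of clusters above each bar and the class size under it. Under TMM scaling the 2 directions are near each other under 20 CPM and part above it, to 26 against 1 at 1000 CPM or more.

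The majority of the most abundant clusters did not pass the test, as among all kept clusters, of which 19.8% were called. The 20 most abundant clusters averaged 2677 to 30266 CPM, and 3 of them rose and 0 fell. Under TMM factors their log2 fold changes ran from -0.47 to 2.22 and 16 of the 20 were above 0, beside a median of 0.0013 over all kept clusters. Without factors that median was -0.28, and how many of the 20 stay above 0 there was not tested. Among the 100 most abundant, 29 rose and 1 fell, beside 12.1% called higher and 7.72% called lower of all kept clusters.

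The number of calls depended on which libraries entered the fit. Leaving out 1 library gave 1175 to 5192 calls, and in each of these fits 56.6% to 70% of the calls were higher at Sicily. These fits all used TMM factors and do not vary the scaling. With all 6 libraries, 42.6% of the calls were higher under upper-quartile factors and 28% without factors. The count rose to 5192 without Sicily replicate 2 and was 3522 without Sicily replicate 3. It was 1695 without the unnumbered library and 1329, 1697 and 1175 without Molise replicates 1, 2 and 3. In all 6 of these fits 719 clusters remained higher (3.86%) and 306 lower (1.64%), 27.8% of the calls. A call in every smaller fit favours large changes. By that selection, these 1025 clusters had median log2 fold changes larger in size than all calls, of 2.11 and -1.39. Of these, 718 higher and 306 lower were also called under the 4 other scalings and by DESeq2, limma-voom and limma-voom with library weights. This core held 204 increases and 10 decreases of 8-fold or more.

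Named clusters are those with the largest change, in each direction, among clusters called in all 6 of these fits that averaged 5 CPM or more and did not overlap between sites. The first, Cluster-27903.42760, stood at 628 CPM in Sicily replicate 2, 149 in replicate 3 and 572 in the unnumbered library, and at 2.60, 2.47 and 1.32 CPM in Molise replicates 1, 2 and 3. The lowest Sicily library was far above the highest Molise library. Means were 449.9 ± 262 and 2.13 ± 0.708 CPM (SD, n = 3), and the log2 fold change was 7.72 ± 0.71 (SE, edgeR adjusted p = 0.0024). In Campania the same variety held 0.629 to 1.31 CPM of this cluster, on a scale set over all 18 libraries.

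Cluster-27903.16754 was the second, at 99.4, 132 and 176 CPM in Sicily replicates 2 and 3 and the unnumbered library, and at 1.22, 2.03 and 0.381 CPM in the Molise libraries. Its Sicily values were closer together than those of the first cluster. The mean rose from 1.21 ± 0.824 to 136 ± 38.4 CPM (SD, n = 3), and the log2 fold change was 6.82 ± 0.57 (SE, edgeR adjusted p = 0.00193). Cabernet Sauvignon from Campania had 2 counts of it in all, in 1 of 3 libraries.

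Among the decreases, Cluster-27903.39110 had 48.9, 12.5 and 44.0 CPM in Molise replicates 1, 2 and 3 and 0.928, 0.528 and 2.04 CPM in Sicily replicates 2 and 3 and the unnumbered library. Molise replicate 2 was the lowest of its site and above each Sicily library, which the naming rule required. The mean was 35.1 ± 19.8 CPM at Molise and 1.17 ± 0.786 at Sicily (SD, n = 3), and the log2 fold change was -4.94 ± 0.71 (SE, edgeR adjusted p = 0.00719). At Campania the cluster ranged from 14.5 to 74.8 CPM, on the scale over 18 libraries, a range that takes in the Molise values of 12.1 to 47.3 CPM on that scale. This call was lost with Sicily replicate 3 as the only Sicily library (adjusted p = 0.138), where the log2 fold change was -6.07, against -4.94 with all 6 libraries.

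Cluster-27903.24161 fell from 35.4, 103 and 67.6 CPM in the Molise libraries to 2.19, 5.28 and 2.44 CPM in Sicily replicates 2 and 3 and the unnumbered library. The sites did not overlap, which the naming rule required. The log2 fold change was -4.37 ± 0.53 (SE, edgeR adjusted p = 0.00445), from means of 68.8 ± 34.0 and 3.30 ± 1.71 CPM (SD, n = 3). Campania had 4.4 to 5.61 CPM on the scale over 18 libraries, overlapping the Sicily libraries (2.13 to 5.01 CPM on that scale) and far under Molise (34.2 to 100.05 CPM). Its call was likewise lost with only Sicily replicate 3 (log2 fold change -3.72, adjusted p = 0.132).

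Campania, the third site of this variety, gave levels for the same clusters in libraries that took no part in choosing them. Over the 2254 clusters called higher, the median was 3.9 to 3.98 log2 CPM in the Campania libraries, between 3.59 to 3.83 at Molise and 5.02 to 5.62 at Sicily. Over the 1438 called lower it was 3.92 to 3.95 at Campania, between 3.12 to 3.35 at Sicily and 4.26 to 4.36 at Molise. Thus the Campania libraries stood nearer to Molise than to Sicily on the clusters called higher. On the 307 strongest increases Campania was below both, at -0.14 to 0.77 log2 CPM against 1.34 to 1.76 at Molise and 4.36 to 6.16 at Sicily. The Molise and Sicily values chose these lists, every listed cluster had to reach 10 counts in the Molise libraries but not in those from Campania, and no test was made of the position of Campania.

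**Figure D4:**
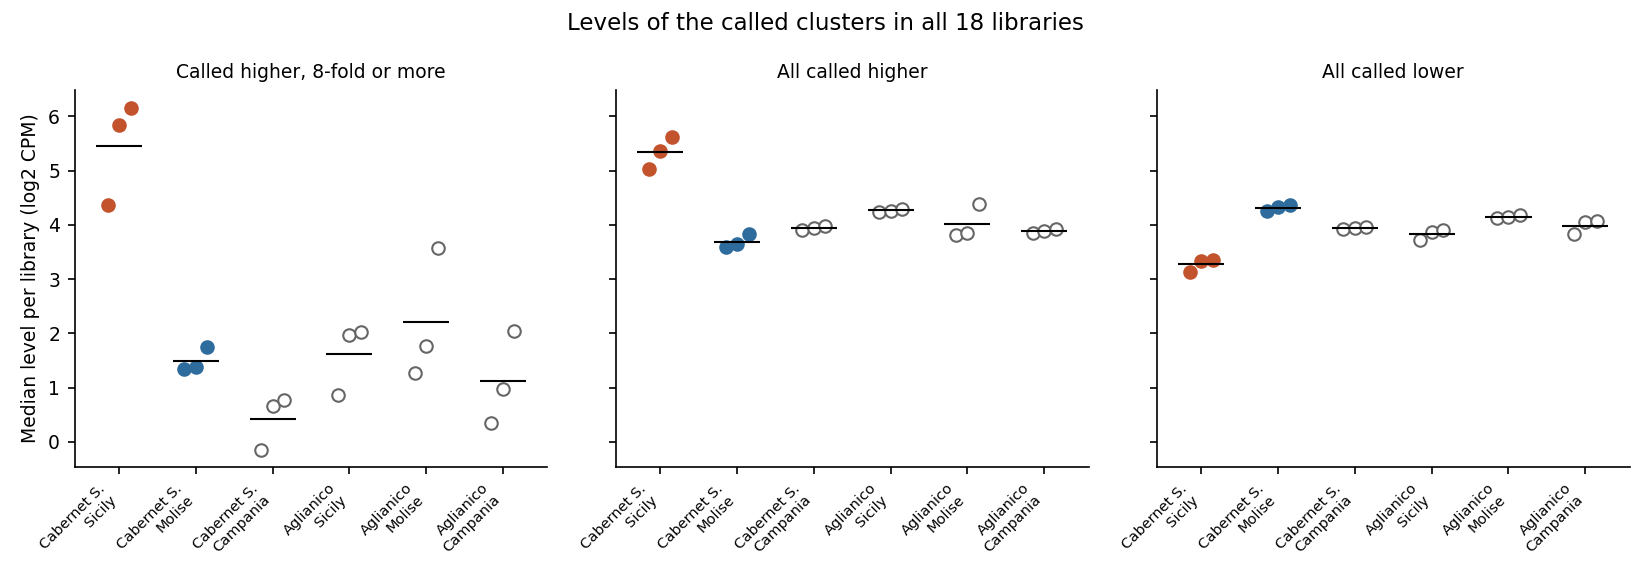
Each point is the median log2 CPM, on a scale set over 18 libraries, of the 307 clusters called at least 8-fold higher at Sicily in Cabernet Sauvignon (left), of all 2254 called higher (middle) and of all 1438 called lower (right), in 1 library; lines are means of 3 libraries and filled points mark the 6 libraries that chose the lists. On the left the Cabernet Sauvignon Sicily libraries (4.36 to 6.16) lie above all 15 others, of which Aglianico Molise replicate 2 (3.57) is the highest.

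In Aglianico, the second variety of the series, 6 other libraries gave an independent reading of the same clusters at the same 2 sites. The same test on 18588 of the clusters called 20.2% of them, 1880 higher (10.1%) and 1876 lower (10.1%) at Sicily. Of the clusters called higher at Sicily in Cabernet Sauvignon, 435 were also called higher in Aglianico, 19.3% of the Cabernet Sauvignon list and 23.1% of the Aglianico list, and 161 (7.14%) were called lower. Of the Cabernet Sauvignon decreases, 340 were called lower in Aglianico as well, 23.6% of the one list and 18.1% of the other, and 65 (4.52%) were called higher. Most clusters of either list did not pass in Aglianico, 1658 of the 2254 and 1033 of the 1438. By sign alone, 25.3% of the Cabernet Sauvignon decreases and 55.8% of the increases had a higher fitted level at Sicily in Aglianico, beside 48.7% of all clusters. The median Aglianico log2 fold change was 0.12 over the clusters called higher and -0.35 over those called lower.

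Of the 307 strongest Cabernet Sauvignon increases, 24 (7.82%) were called higher and 22 (7.17%) lower at Sicily in Aglianico, beside 10.1% of all clusters each way. Their median Aglianico log2 fold change was -0.97, against -0.022 over all kept clusters. Their median level was 0.87 to 2.03 log2 CPM in the Aglianico Sicily libraries and 1.27 to 3.57 at Aglianico Molise, with overlap between the sites. No minimum count applied to the Aglianico libraries. The highest value came from Aglianico Molise replicate 2, in which the 307 clusters took 1.73% of the kept counts, against 0.366% and 0.429% in the other libraries of that group.

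The difference between the varieties in their response to site was tested directly, as the interaction of variety and site over 12 libraries. It was called for 3096 clusters (16.6%), with the Cabernet Sauvignon response more positive for 1832 (9.84%) and more negative for 1264 (6.79%). Under upper-quartile factors the split was 1574 and 1669, so its direction also depended on the scaling. In each of the 4 clusters named by the interaction 1 Aglianico group had no count, so the fitted interaction rests on the prior count and only the direction and the levels are given. Every kept cluster had 10 or more counts in all 6 Cabernet Sauvignon libraries, with no minimum in Aglianico. Only an Aglianico group could therefore be without a count, and naming by the largest interaction favours such clusters. Absence in Aglianico is thus partly a product of the selection. The levels below are on the scale over 18 libraries.

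Cluster-27903.47406 had 12.8 to 26.8 CPM at Sicily and 0.637 to 1.57 CPM at Molise in Cabernet Sauvignon, but no count at Sicily and 0.933, 13.5 and 1.52 CPM in Molise replicates 1, 2 and 3 in Aglianico. The Aglianico mean was at least 94.1-fold lower at Sicily, against 3 counts summed over that group, and at least 21.7-fold lower without Aglianico Molise replicate 2. Such a bound covers counting error only, not the spread between libraries. The Aglianico site difference itself did not pass the test (edgeR adjusted p = 0.081), whereas the interaction did (adjusted p = 0.00617). Cluster-27903.46352 was near level in Cabernet Sauvignon, at 48.9 to 86 CPM at Sicily and 65.1 to 113 CPM at Molise, with overlap (log2 fold change -0.45 ± 0.27, SE, edgeR adjusted p = 0.276). In Aglianico it had no count at Sicily and 38.2 to 147 CPM at Molise, at least 1540-fold lower, or at least 1010-fold without Aglianico Molise replicate 3 (edgeR adjusted p = 0.00865 for the Aglianico site difference and 0.000571 for the interaction).

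Both clusters with the most negative interaction moved in opposite ways in the 2 varieties. Cluster-27903.39110, described above among the Cabernet Sauvignon decreases, had no count at Molise in Aglianico and 12.4, 52.5 and 4.74 CPM in Aglianico Sicily replicates 1, 2 and 3, at least 511-fold higher at Sicily, or at least 188-fold without replicate 2 (edgeR adjusted p = 0.0376 for the Aglianico site difference and 0.0028 for the interaction). In Aglianico from Campania it had no count in replicate 1 and 258 and 1223 counts in replicates 2 and 3, so absence also varied within a site. Cluster-27903.36756 fell from 54.3 to 90.9 CPM at Molise to 0.752 to 5.78 CPM at Sicily in Cabernet Sauvignon (log2 fold change -4.31 ± 0.69, SE, edgeR adjusted p = 0.00991). In Aglianico it had no count at Molise and 4.68 to 56.8 CPM at Sicily, at least 634-fold higher, or at least 326-fold without replicate 2 (edgeR adjusted p = 0.0326 for the Aglianico site difference and 0.00291 for the interaction). Aglianico Campania replicate 1 again had no count, beside 832 and 885 counts in replicates 2 and 3. By contrast Cluster-27903.24161 fell at Sicily in both varieties, from 57.3 to 131 CPM to 3.37 to 11.5 CPM in Aglianico (log2 fold change -3.69 ± 0.53, SE, edgeR adjusted p = 0.00666), and the interaction was not called (-0.69 ± 0.76, SE, adjusted p = 0.588).

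**Figure D5:**
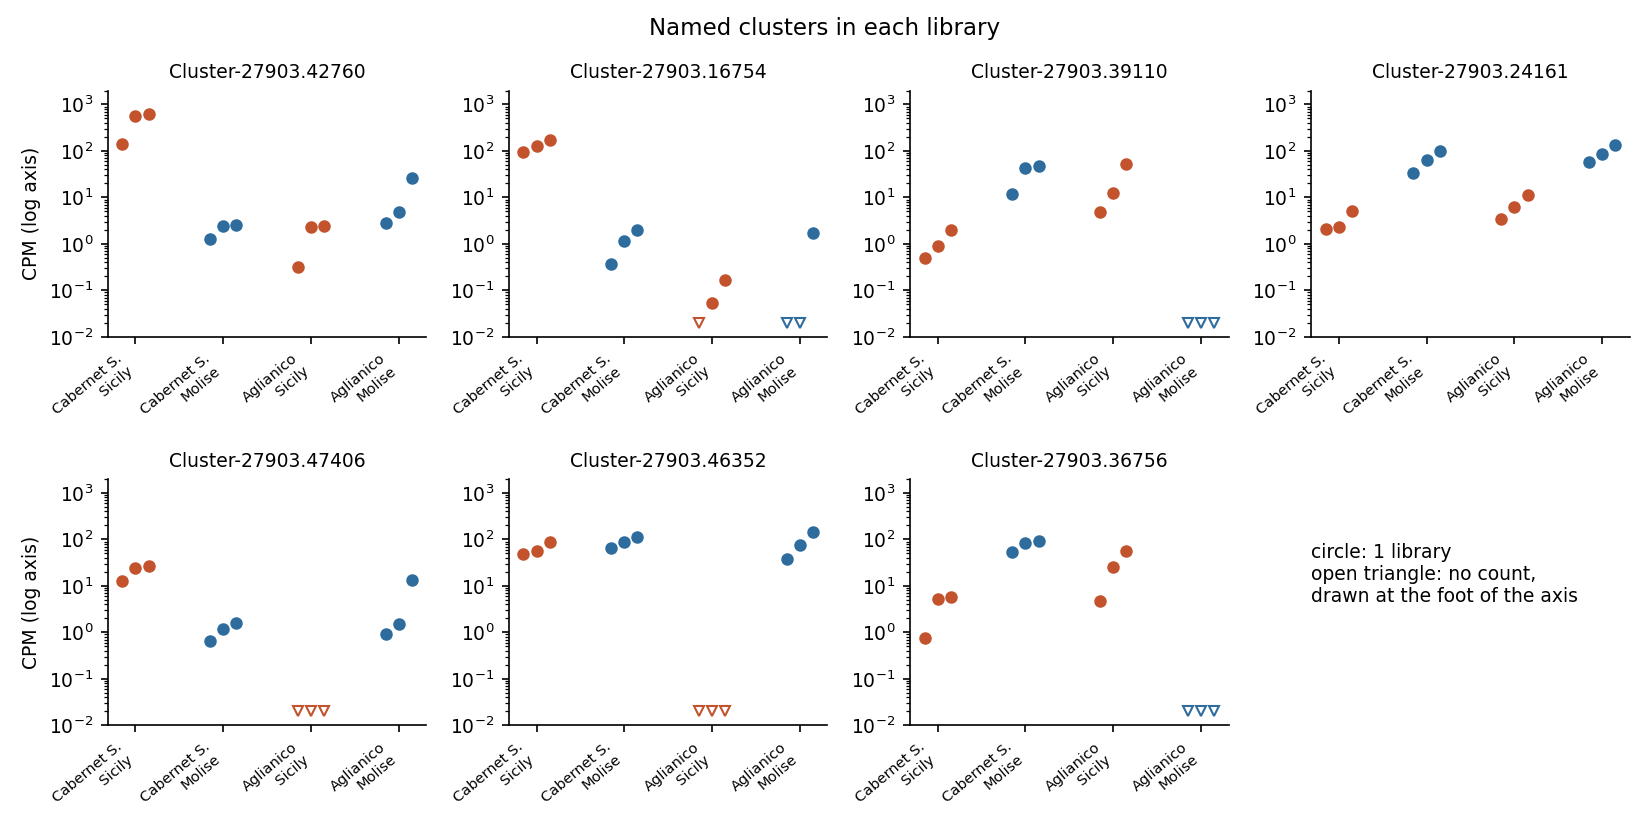
Each panel shows 1 named cluster in CPM (log axis, scale set over 18 libraries), with 1 point per library for Cabernet Sauvignon and Aglianico at Sicily and Molise; open triangles are libraries with no count, drawn at the foot of the axis. Cluster-27903.24161 is lower at Sicily in both varieties, whereas Cluster-27903.39110 and Cluster-27903.36756 are lower at Sicily in Cabernet Sauvignon and without a count at Molise in Aglianico.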

How the data were processed

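The authors deposited 1 table of expected counts (estimated reads per transcript cluster, not scaled to depth) for 97442 clusters and 18 libraries, of which 6.37% to 7.16% of the values were not whole in the 6 libraries compared. Per the submitters' processing notes, CASAVA 1.8, RSEM and DESeq2 were used, in roles not stated; how reads were aligned or assembled, and against which genome if any, is not given in the sources used here. Related clusters may share reads, which leaves the level of any 1 cluster uncertain to that extent. Columns were matched to samples by description. The column of 1 Cabernet Sauvignon Sicily library was matched to its group only. No 2 of the 6 libraries agreed within sampling noise (lowest chi-square per degree of freedom 21.7).

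Counts were rounded, and clusters with 10 or more counts in all 6 libraries kept, 18618 in all. Differences were tested with edgeR 4.0.16 in R 4.3.3 (glmQLFit and glmQLFTest, robust, TMM over the kept clusters, the 6 libraries only), with Benjamini-Hochberg adjustment and a threshold of 0.05. Aglianico and the interaction used the same clusters; 30 had no count in Aglianico. Standard errors were obtained from the F statistic of each cluster. The scripts were tested on simulated data with as many rises as falls. That simulation does not test the scaling shift or the effect of the Sicily libraries that stood apart. log2 CPM used a prior count of 2. Alternatives were other scalings, filters and fits, DESeq2 1.42.0, limma-voom 3.58.1 and leaving out libraries. At most 2 clusters are named per direction and comparison, by the rule in the report; those of the interaction were the largest among calls that held without each of 12 libraries and averaged 5 CPM or more. Cluster-27903.46352 and others with groups at 0 are given as bounds against 3 counts per group. The bounds without the highest library and the counts of clusters without overlap under other scalings were chosen after seeing the data. Clusters, libraries and rules were chosen with earlier results of these data known.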

Additional observations from a re-analysis of the deposited data

Results flagged for a closer look

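The response to site differed between the varieties for 3096 clusters by the interaction test of edgeR. The fitted interaction log2 fold changes of the 4 named clusters were 14.18 for Cluster-27903.47406, 13.52 for Cluster-27903.46352, -17.01 for Cluster-27903.39110 and -16.7 for Cluster-27903.36756. Each has an Aglianico group with no count, so these sizes rest on the prior count and are not measurements of fold.

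Clusters outside the comparison also carried counts. There were 23 clusters with 10 or more counts in all 3 Sicily libraries and no count at Molise, which took 0.0561%, 0.00268% and 0.00822% of the counts of Sicily replicates 2 and 3 and the unnumbered library. The other way, 29 clusters had 10 or more counts in all 3 Molise libraries and none at Sicily, and took 0.00651% to 0.0158% of the counts of a Molise library. In addition, 21003 clusters reached 10 counts in Sicily replicate 2 alone and 7831 in the unnumbered library alone.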

How the results depend on the processing

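The 3692 calls became 210 with no filter (92836 clusters tested, median log2 fold change 1.29), and 1175 to 5192 without 1 library. With replicates 2 and 3 of both sites, the numbers legible at both, there were 789 calls with the replicate number as a block and 213 without it, an alternative chosen after seeing the data. Deviations of same-numbered libraries correlated at 0.155 and 0.0468, so the numbers were not taken to pair libraries. Other scalings, tests, filters and fits gave 3303 to 5503 calls, and 3081 with 1 Sicily library; 28% to 63.4% of these calls were higher (54.3% under factors and totals of all clusters), against 61% in the main result, 76.7% with no filter, 79.7% with the block and 84% in the same 4 libraries without it. The 3756 Aglianico calls became 2015 to 3638 without 1 library (3735 with a replicate block), and the 3096 interaction calls 1945 to 3405. Detected clusters differed by 2902 to 13683, kept shares by -8.67 to -3.43 points and the share of the 20 most abundant by -0.572 to 2.57 points without 1 library, the last reversing without Sicily replicate 3 (-0.572). Named clusters had to be called in each fit that left out 1 library. Those fits are among the alternatives counted next, so only the remaining alternatives could lose a call. Alternatives whose filter removed a cluster are not counted for it. The filter of 50 counts in all 6 libraries removed every cluster named by site. A filter of 10 counts in all 12 libraries removed the 4 of the interaction, and gave 2455 interaction calls (1492 positive, 963 negative). Of the named clusters, Cluster-27903.42760 kept its call in 20 of 20 alternatives that tested it and the 4 of the interaction in 16 of 16. Cluster-27903.16754 lost it with the block (adjusted p = 0.0774), Cluster-27903.24161 with no filter (0.0615) and with 1 Sicily library (0.132), and Cluster-27903.39110 in 4 (0.0529 to 0.138); none changed sign. The causes were not tested. The 3 libraries per site limit the precision. The minimum of 10 counts in every library limits the size of a fall or a rise that can be seen.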
